A study of Mus musculus with 28 samples.

Results

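The genes described are the 8 that encode the enzymes writing and removing cytosine methylation in DNA and the enzyme that clears D-2-hydroxyglutarate: Tet1, Tet2, Tet3, Dnmt1, Uhrf1, Dnmt3a, Dnmt3b and D2hgdh. They were taken by symbol from the 43430 gene IDs shared by the 3 count tables of the series, and all 8 had counts in every library and were tested in every comparison. The series measured RNA in 28 libraries of mouse regulatory T (Treg) cells, sorted as CD4+ YFP-Foxp3+ CD25+ cells from mice of the strain C57BL/6NJ. RISP_KO cells lack RISP, the Rieske iron-sulfur protein of respiratory complex III (gene Uqcrfs1), and came with RISP_WT cells from 3-week-old mice (n = 4 libraries each). RISP_Chimera_KO and RISP_Chimera_WT cells have the same 2 genotypes and are labelled as 8 to 12 weeks old and from chimeras (n = 4 each). The in vitro groups are RISP WT Treg cells of 3-week-old mice exposed to 1 µM piericidin (Piericidin, an inhibitor of complex I), to 500 µM 3-NPA (3-nitropropionic acid, an inhibitor of complex II), to 1 µM antimycin A (AntimycinA, an inhibitor of complex III), or left Untreated (n = 3 each). The Cre driver, the make-up of the chimeras and the length of the exposures are not given in the sources used here.

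TET1, TET2 and TET3 are iron- and 2-oxoglutarate-dependent dioxygenases that oxidise 5-methylcytosine, the step that starts active demethylation, and 2-hydroxyglutarate, succinate and fumarate inhibit them in competition with 2-oxoglutarate. DNMT1 copies methylation onto the new strand behind the replication fork, guided by UHRF1, which binds hemimethylated CpG, while DNMT3A and DNMT3B methylate sites anew. D2HGDH oxidises D-2-hydroxyglutarate back to 2-oxoglutarate and hands its electrons to the respiratory chain through the electron transfer flavoprotein. In Treg cells, TET-dependent demethylation of the Foxp3 locus is known to keep the lineage stable.

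Dnmt1 and Uhrf1 were called with every inhibitor, so the windows around their annotated starts are shown here, from RefSeq on GRCm38.p6. Windows with at least 10 CpG are printed, 4 in all. Capitals mark either an E2F motif, searched as TTTCCCGC, TTTCGCGC, TTTGCCGC or TTTGGCGC, or the core of the NRF1 motif, searched as GCATGCGC, both on either strand. Where the NRF1 core lies in GCGCATGCGC, it overlaps its own reverse complement and the 2 matches share bases.
Dnmt1, chr9:20952574-20952873, minus strand: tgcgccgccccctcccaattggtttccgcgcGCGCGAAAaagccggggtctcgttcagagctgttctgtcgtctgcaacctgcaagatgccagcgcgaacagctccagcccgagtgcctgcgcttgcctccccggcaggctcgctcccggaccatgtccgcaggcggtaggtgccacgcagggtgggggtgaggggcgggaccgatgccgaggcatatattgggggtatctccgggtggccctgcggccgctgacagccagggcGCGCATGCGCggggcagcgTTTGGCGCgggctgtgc
Dnmt1, chr9:20952930-20953229, minus strand: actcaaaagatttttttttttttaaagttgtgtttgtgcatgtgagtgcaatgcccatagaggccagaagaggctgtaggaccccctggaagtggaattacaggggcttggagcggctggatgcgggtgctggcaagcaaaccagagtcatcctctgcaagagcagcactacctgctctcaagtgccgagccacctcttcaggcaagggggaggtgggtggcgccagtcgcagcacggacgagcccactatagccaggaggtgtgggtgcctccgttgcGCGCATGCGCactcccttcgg
Uhrf1, chr17:56303087-56303386, plus strand: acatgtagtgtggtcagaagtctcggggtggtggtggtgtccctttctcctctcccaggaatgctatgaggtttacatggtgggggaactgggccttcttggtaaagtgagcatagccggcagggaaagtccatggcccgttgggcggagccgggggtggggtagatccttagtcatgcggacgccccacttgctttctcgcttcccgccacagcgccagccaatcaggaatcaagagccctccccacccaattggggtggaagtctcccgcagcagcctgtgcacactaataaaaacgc
Uhrf1, chr17:56304063-56304362, plus strand: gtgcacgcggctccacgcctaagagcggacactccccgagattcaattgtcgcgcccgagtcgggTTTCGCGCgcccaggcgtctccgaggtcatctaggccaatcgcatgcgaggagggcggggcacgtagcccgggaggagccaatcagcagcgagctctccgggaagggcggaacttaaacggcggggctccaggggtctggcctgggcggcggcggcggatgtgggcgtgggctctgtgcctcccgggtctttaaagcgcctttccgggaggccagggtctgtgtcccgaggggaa
An E2F motif stood in 1 of the 2 printed Dnmt1 windows, on both strands (GCGCGAAA and TTTGGCGC), and in 1 of the 2 Uhrf1 windows (TTTCGCGC). Of the 32851 windows of the same length, 2.26% held one. The NRF1 core stood in both printed Dnmt1 windows and in 2.71% of all windows. No window of the other 6 genes held either motif. The 13 windows of the 8 genes held 2 to 57 CpG, the highest count being that of Tet2 (chr3:133544341-133544640), against a median of 7 over all windows with quartiles of 3 and 20. These matches describe letters only, since no binding was measured.

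Libraries held 28.4 to 50.8 M counts in 3-week-old mice, 20.4 to 31.0 M in chimeras and 2.71 to 3.45 M in vitro, so low genes are least precise in vitro. Uqcrfs1 read 5.14 to 7.45 CPM (counts scaled to library size) in RISP_KO against 154 to 189 CPM in RISP_WT, and its range was 4.83 to 11.3 CPM in RISP_Chimera_KO libraries, compared with 73.5 to 85.9 CPM for RISP_Chimera_WT, so the genotypes matched their labels. Foxp3, the defining Treg factor, read 24.4 to 38.1 CPM in RISP_KO and 30.9 to 36.2 CPM in RISP_WT, below the 386 to 508 CPM of the chimeras and the 516 to 825 CPM in vitro, in tables made with different library kits. Macrophage and monocyte markers summed to 6.64 to 11.9 CPM in RISP_KO against 15.8 to 45.1 CPM in RISP_WT. The 8 B cell markers other than Ighm summed to 21.8 to 30.7 CPM in RISP_KO against 49.5 to 66.8 CPM in RISP_WT. With Ighm the sums overlapped, at 568 to 792 CPM in RISP_KO against 781 to 984 CPM in RISP_WT. The 6 CD8 T cell and natural killer cell markers summed to 35.7 to 49.9 CPM in RISP_KO against 22.2 to 30.2 CPM in RISP_WT. They did not move together: of 5 tested, 1 was called higher, against 4.78% of all genes tested. Log2 fold changes were above 0 for 3 and below 0 for 2, with a median of 0.03. In vitro the macrophage markers summed to 15.1 to 22.6 CPM over the 4 groups. The B cell markers other than Ighm summed to 4.38 to 7.98 CPM with piericidin and 10.7 to 13.7 CPM with 3-NPA. With antimycin A they summed to 9.37 to 22.0 CPM, against 5.55 to 8.77 CPM in Untreated cells. With Ighm the sums were 275 to 294 CPM with piericidin, 320 to 463 CPM with 3-NPA and 351 to 450 CPM with antimycin A. In Untreated cells they were 478 to 547 CPM. In the chimeras a score of other-cell markers was 0.879 and 0.857 in RISP_Chimera_KO replicates 2 and 4 and at most 0.313 in the other 6 libraries. In these bulk libraries, fewer cells of a type and less RNA per cell cannot be told apart.

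Per kilobase of longest coding transcript, the order of the 8 genes differed between the settings. In Untreated cells Dnmt1 had the highest level, 74.1 ± 4.89 CPM per kb (SD, n = 3), followed by Uhrf1 at 65.0 ± 5.11. Dnmt3a (20.04 ± 1.08) and Tet3 (18.3 ± 2.15) came next and lay within their spread of each other. Tet2 had 6.84 ± 1.30, D2hgdh 4.81 ± 0.125, Dnmt3b 4.22 ± 0.821 and Tet1 0.269 ± 0.211 CPM per kb in the same cells. Uhrf1 stood close under Dnmt1 also in RISP_WT (34.9 ± 2.24 against 38.0 ± 2.40 CPM per kb, n = 4), where the libraries of the 2 genes overlapped. In RISP_Chimera_WT it had only 3.96 ± 0.647 CPM per kb, while Dnmt1 had 27.2 ± 2.22 and Tet3 24.4 ± 3.32 CPM per kb (n = 4). Tet1 was the lowest of the 8 in every group on this scale. With the summed exon length deposited in the tables in place of the transcript, Dnmt3b was the lowest in the 4 knockout and wild-type groups and in Piericidin. In Untreated cells Uhrf1 on that scale had 14.8 ± 1.16 CPM per kb, under Dnmt1 at 26.4 ± 1.74, and Dnmt3a (4.64 ± 0.25) lay below Tet3 (10.05 ± 1.18) and Tet2 (6.84 ± 1.30).

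**Figure D1:**
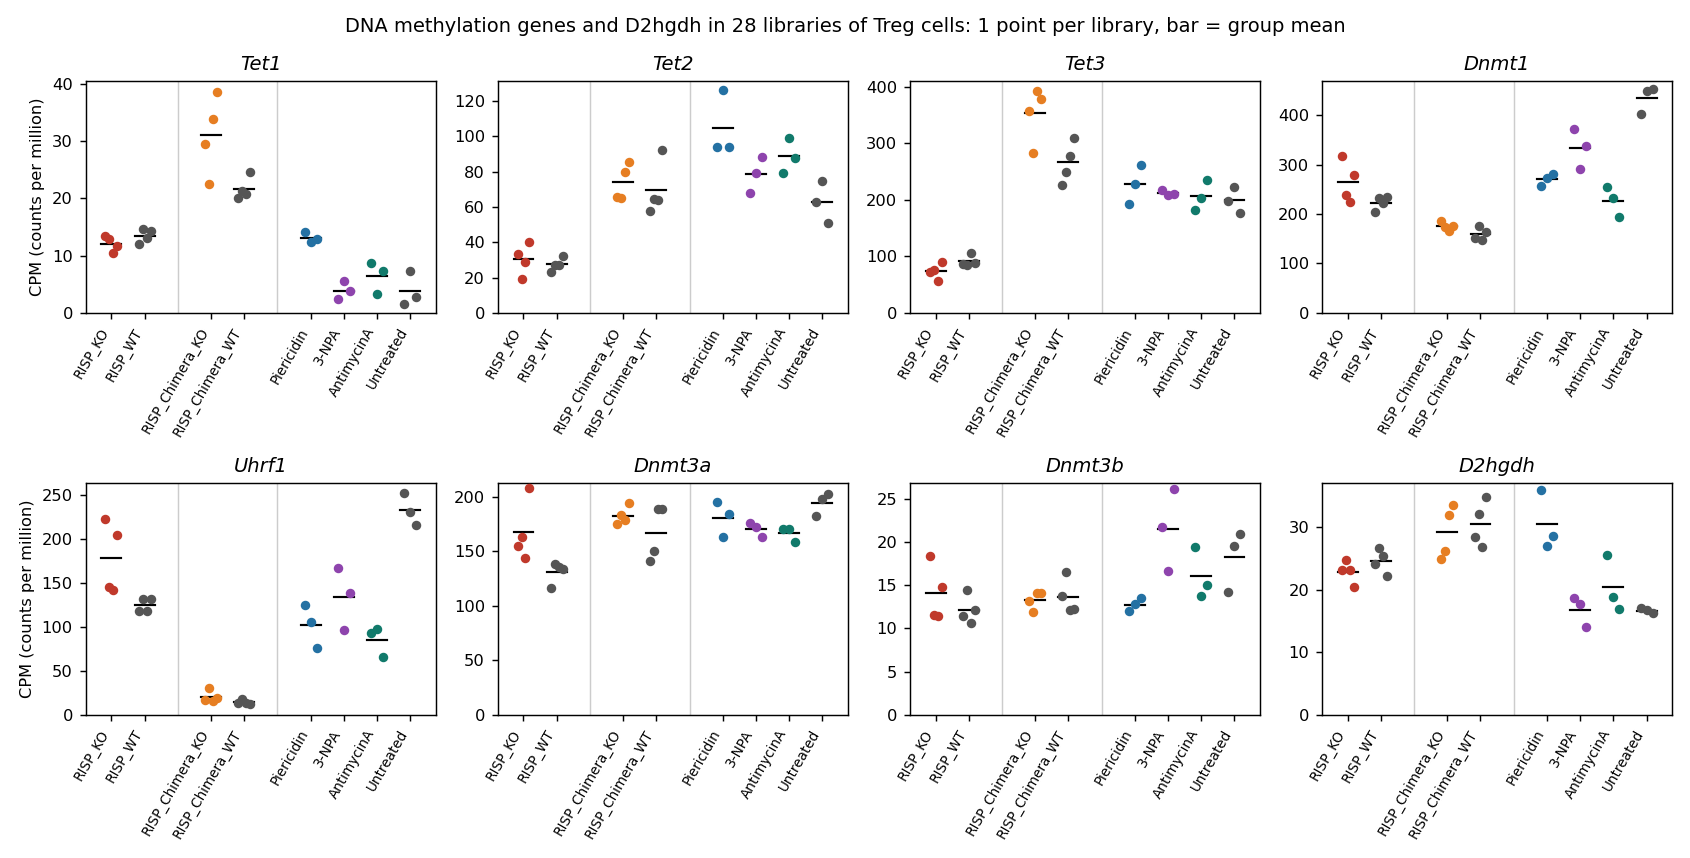
Level of each of the 8 genes in CPM (y axis, linear, a scale of its own per gene) in all 28 libraries; points are libraries, bars group means, and grey lines part the 3 tables. Dnmt1 and Uhrf1 lie lower in all 9 inhibitor libraries than in the 3 Untreated ones, and Uhrf1 lies at 12.6 to 30.1 CPM in all chimera libraries.

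In the comparison of RISP_KO with RISP_WT, which asks what loss of complex III does in Treg cells of young mice, 1 of the 8 genes was called, against a background of 9.86% of 13832 genes tested (4.78% higher, 5.08% lower). Called means an adjusted p under 0.05 from edgeR's quasi-likelihood test with Benjamini-Hochberg adjustment over all genes tested. That gene was Uhrf1, which read 223, 145, 142 and 205 CPM in the 4 RISP_KO libraries against 118, 132, 118 and 132 CPM in the 4 RISP_WT libraries. All 4 RISP_KO libraries lay above all 4 RISP_WT libraries, and replicates 1 and 4 of RISP_KO were the highest. Its log2 fold change was 0.53 ± 0.14 (SE, 95% interval 0.21 to 0.84, adjusted p = 0.0399). The call was lost with the replicate block (adjusted p = 0.0687) and in 6 of 8 fits that left out 1 library (without replicate 1 or 4 of RISP_KO or any RISP_WT library, adjusted p 0.0721 to 0.115). With the other-cell markers as a covariate the log2 fold change was 0.39 and the adjusted p = 0.836, in a fit that called 55 genes in place of 1364. That score was -1.21 to -0.13 in RISP_KO and 0.14 to 1.12 in RISP_WT. The covariate thus largely follows the genotype, and this fit cannot part the 2.

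Dnmt1, the partner of Uhrf1 in maintenance, read 318, 238, 225 and 278 CPM in RISP_KO against 204, 233, 221 and 235 CPM in RISP_WT, groups that overlapped (log2 fold change 0.26 ± 0.11, adjusted p = 0.156). Dnmt3a, the more abundant de novo enzyme per kilobase, had 155, 163, 143 and 208 CPM in RISP_KO against 116, 138, 135 and 133 CPM in RISP_WT. Its groups did not overlap, yet it was not called (0.37 ± 0.12, 95% interval 0.10 to 0.64, adjusted p = 0.0832). Dnmt3b averaged 14.1 ± 3.12 CPM in RISP_KO and 12.1 ± 1.45 CPM in RISP_WT (adjusted p = 0.477).

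Of the TET genes none was called in RISP_KO. Tet1 averaged 12.1 ± 1.13 CPM in RISP_KO and 13.5 ± 1.01 CPM in RISP_WT (SD, n = 4, log2 fold change -0.15 ± 0.14, adjusted p = 0.537). Tet2 averaged 30.5 ± 9.19 CPM in RISP_KO and 27.4 ± 3.62 CPM in RISP_WT, with an interval of -0.30 to 0.61 on the log2 scale. Tet3 had 73.0, 75.9, 56.0 and 89.8 CPM in RISP_KO against 86.2, 84.5, 106 and 87.8 CPM in RISP_WT. Only replicate 4 of RISP_KO reached into the range of RISP_WT, and the log2 fold change of Tet3 was -0.30 ± 0.14 (adjusted p = 0.224). D2hgdh averaged 22.9 ± 1.56 CPM in RISP_KO and 24.5 ± 1.92 CPM in RISP_WT, and its interval of -0.35 to 0.15 on the log2 scale leaves out a change of 1 log2 unit in either direction.

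In the chimeras none of the 8 genes was called by edgeR, against a background of 0.708% of 14399 genes (0.167% higher, 0.542% lower), although 3 had an unadjusted p under 0.05, against 12.9% of all genes tested, and DESeq2 called 2, against 3.21% of its 13587 genes with an adjusted p. Tet1 read 29.5, 22.6, 33.8 and 38.6 CPM in RISP_Chimera_KO against 20.01, 21.2, 20.8 and 24.6 CPM in RISP_Chimera_WT. Replicate 2 of RISP_Chimera_KO alone lay within the range of RISP_Chimera_WT, and the log2 fold change was 0.50 ± 0.14 (edgeR adjusted p = 0.151, DESeq2 adjusted p = 0.0318). Tet3 read 358, 284, 394 and 378 CPM in RISP_Chimera_KO against 227, 249, 279 and 310 CPM in RISP_Chimera_WT, again with replicate 2 of the knockout in the range of the wild type. Its log2 fold change was 0.39 ± 0.11 (edgeR adjusted p = 0.151, DESeq2 adjusted p = 0.0184). Without RISP_Chimera_KO replicate 2, one of the 2 libraries with a high other-cell score, edgeR called both, Tet1 at 0.63 (adjusted p = 0.0224) and Tet3 at 0.48 (adjusted p = 0.0315). With both of those libraries left out Tet3 alone was called (0.49, adjusted p = 0.0484), in a fit that called 247 genes in place of 102. In the other 7 of 8 edgeR fits that left out 1 library, neither Tet1 nor Tet3 was called. The lowest log2 fold changes there were 0.40 for Tet1 and 0.32 for Tet3, and the highest adjusted p were 0.359 and 0.365. With the other-cell markers as a covariate edgeR called neither of these 2 genes.

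Uhrf1 was low in the chimeras, at 16.9, 30.1, 15.1 and 18.8 CPM in RISP_Chimera_KO against 13.7, 17.6, 12.9 and 12.6 CPM in RISP_Chimera_WT. The groups overlapped, replicate 2 of the knockout was the highest, and the log2 fold change was 0.49 ± 0.21 (adjusted p = 0.342). Dnmt1 averaged 174 ± 9.63 CPM in RISP_Chimera_KO and 161 ± 13.8 CPM in RISP_Chimera_WT (SD, n = 4, log2 fold change 0.11 ± 0.08, adjusted p = 0.585). Tet2, Dnmt3a, Dnmt3b and D2hgdh had log2 fold changes of -0.09 to 0.11, with adjusted p of 0.681 to 0.907.

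Whether the knockout effect differed between the settings was tested directly, as the effect in chimeras minus that in 3-week-old mice over all 16 libraries, where age, setting and library kit change together and cannot be told apart. None of the 8 genes was called by edgeR, against a background of 3.27% of 15580 genes. An unadjusted p under 0.05 was found for 2 of the 8, against 16.7% of all genes tested, and DESeq2 called 2, against 6.06% of its 14988 genes with an adjusted p. Those 2 were Tet3, with a difference of 0.67 ± 0.20 on the log2 scale (edgeR adjusted p = 0.0822, DESeq2 adjusted p = 0.0320), and Tet1, with 0.63 ± 0.20 (edgeR adjusted p = 0.101, DESeq2 adjusted p = 0.0446). For Uhrf1 the difference was -0.07 ± 0.26, with an interval of -0.62 to 0.49.

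**Figure D2:**
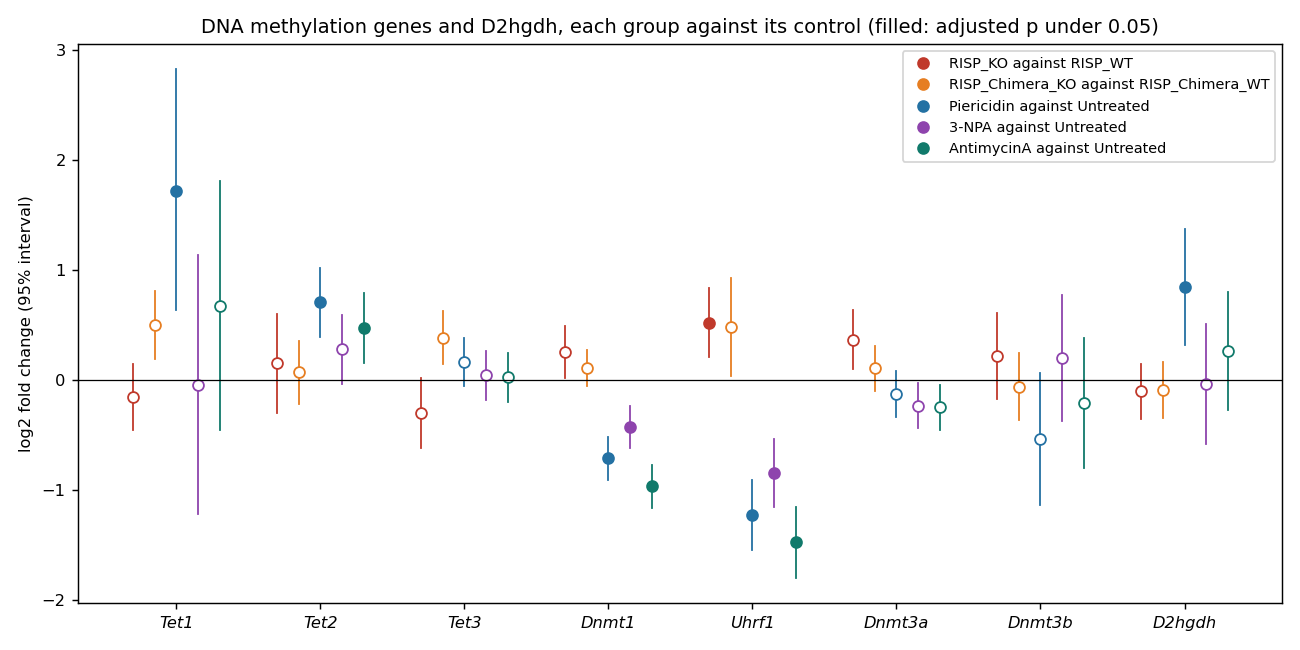
Log2 fold change of each gene (y axis) in the 5 comparisons against a control; points are edgeR estimates, lines 95% intervals, and filled points had an adjusted p under 0.05. Uhrf1 is filled above 0 for RISP_KO (0.53) and below 0 for all 3 inhibitors (-0.84 to -1.47).

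In vitro the question was how block of complex I, II or III acts on wild-type Treg cells. Piericidin called 5 of the 8 genes, 3 higher and 2 lower, against a background of 13.6% of 11689 genes (5.62% higher, 7.93% lower). Antimycin A called 3, 1 higher and 2 lower, against 15% (6.5% higher, 8.5% lower). 3-NPA called 2, both lower, against 3.23% (1.35% higher, 1.87% lower). The 3 comparisons share the Untreated libraries, so their values stand side by side and are not independent of each other.

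Both maintenance genes fell with each inhibitor. Uhrf1 read 125, 106 and 75.5 CPM with piericidin, 167, 96.0 and 138 CPM with 3-NPA and 92.9, 97.8 and 65.1 CPM with antimycin A, against 252, 231 and 216 CPM in Untreated cells. All 9 inhibitor libraries lay below all 3 Untreated libraries. The log2 fold change was -1.22 ± 0.16 with piericidin (adjusted p = 6.12e-07), -0.84 ± 0.15 with 3-NPA (adjusted p = 0.00108) and -1.47 ± 0.16 with antimycin A (adjusted p = 6.66e-09), that is 0.429, 0.559 and 0.360 of the Untreated level.

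Dnmt1 read 257, 273 and 281 CPM with piericidin, 372, 291 and 337 CPM with 3-NPA and 255, 232 and 194 CPM with antimycin A, against 402, 449 and 453 CPM in Untreated cells. Here too all 9 inhibitor libraries lay below the Untreated ones. The log2 fold change was -0.71 ± 0.10 with piericidin (adjusted p = 1.86e-06), -0.42 ± 0.10 with 3-NPA (adjusted p = 0.00771) and -0.96 ± 0.10 with antimycin A (adjusted p = 2.06e-09). The call with 3-NPA was lost without 3-NPA replicate 2, 3-NPA replicate 3 or Untreated replicate 3 (adjusted p 0.0538 to 0.0908).

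By edgeR neither de novo gene was called with any inhibitor, while DESeq2 called Dnmt3a with antimycin A, against a DESeq2 background of 18.7%. Dnmt3a read 195, 163 and 184 CPM with piericidin, 176, 172 and 163 CPM with 3-NPA and 171, 170 and 158 CPM with antimycin A, against 182, 198 and 202 CPM in Untreated cells. The 3-NPA and antimycin A libraries lay below all Untreated ones, with log2 fold changes of -0.23 ± 0.10 (edgeR adjusted p = 0.245) and -0.25 ± 0.10 (edgeR adjusted p = 0.103, DESeq2 adjusted p = 0.0459). Dnmt3b had 33 to 90 counts a library in vitro and intervals that reach from -1.14 to 0.78 on the log2 scale over the 3 inhibitors. Its piericidin libraries (12.0, 12.8 and 13.5 CPM) lay below the Untreated ones (14.2, 19.6 and 20.9 CPM) without a call (-0.53 ± 0.30, adjusted p = 0.259).

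The make-up of the DNMT genes by level differed between inhibitor and Untreated libraries, as a description with no test. Per kilobase, Dnmt1 made up 68.0 ± 2.24% of the 3 DNMT genes with piericidin, 71.4 ± 1.75% with 3-NPA and 64.8 ± 1.97% with antimycin A, against 75.3 ± 0.284% in Untreated cells (SD, n = 3). Dnmt3a made up 26.9 to 30.9% in the antimycin A libraries and 20.1 to 20.8% in the Untreated ones. In the knockouts the share of Dnmt1 was 68.6 ± 3.06% in RISP_KO and 70.0 ± 0.654% in RISP_WT, and 57.6 ± 1.77% in RISP_Chimera_KO and 57.2 ± 3.53% in RISP_Chimera_WT, within the spread of the libraries.

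Among the TET genes Tet2 rose with piericidin and antimycin A. It read 94.1, 126 and 94.3 CPM with piericidin, 67.7, 79.4 and 88.2 CPM with 3-NPA and 79.3, 99.0 and 88.0 CPM with antimycin A, against 62.6, 74.8 and 51.0 CPM in Untreated cells. The piericidin and antimycin A libraries lay above all Untreated libraries and those of 3-NPA overlapped them. The log2 fold change was 0.71 ± 0.15 with piericidin (adjusted p = 0.00122), 0.28 ± 0.16 with 3-NPA (adjusted p = 0.379) and 0.47 ± 0.16 with antimycin A (adjusted p = 0.0321). The antimycin A call was lost without AntimycinA replicate 2 or 3 or without Untreated replicate 1 or 3 (adjusted p 0.0822 to 0.223).

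Tet1, which is very low in these cultures, rose with piericidin. It had 39, 34 and 42 counts in the piericidin libraries, 7, 15 and 13 in those of 3-NPA and 24, 11 and 20 in those of antimycin A, against 5, 25 and 8 counts in Untreated libraries. The piericidin libraries lay above all Untreated ones at a log2 fold change of 1.73 ± 0.54 (95% interval 0.64 to 2.83, adjusted p = 0.0255). The call was lost without any one of the 3 piericidin libraries and without Untreated replicate 1 or 3 (adjusted p 0.0570 to 0.147). Over these fits the log2 fold change was 1.36 to 1.77, and without Untreated replicate 2, the library with 25 counts, it was 2.57 (adjusted p = 0.00634). With antimycin A the interval was -0.45 to 1.81 and with 3-NPA -1.22 to 1.14, intervals that do not leave out a change of 1 log2 unit.

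Tet3, per kilobase the highest of the 3 in all 8 groups, read 192 to 261 CPM with piericidin, 208 to 217 CPM with 3-NPA and 182 to 236 CPM with antimycin A, against 176 to 223 CPM in Untreated cells. Its log2 fold changes were 0.17 ± 0.11, 0.05 ± 0.11 and 0.03 ± 0.11 in that order, with intervals between -0.20 and 0.39. Per kilobase Tet2 made up 34.4 ± 4.75% of the 3 TET genes with piericidin, 30.2 ± 3.07% with 3-NPA and 33.3 ± 3.10% with antimycin A, against 26.8 ± 1.35% in Untreated cells (SD, n = 3).

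**Figure D3:**
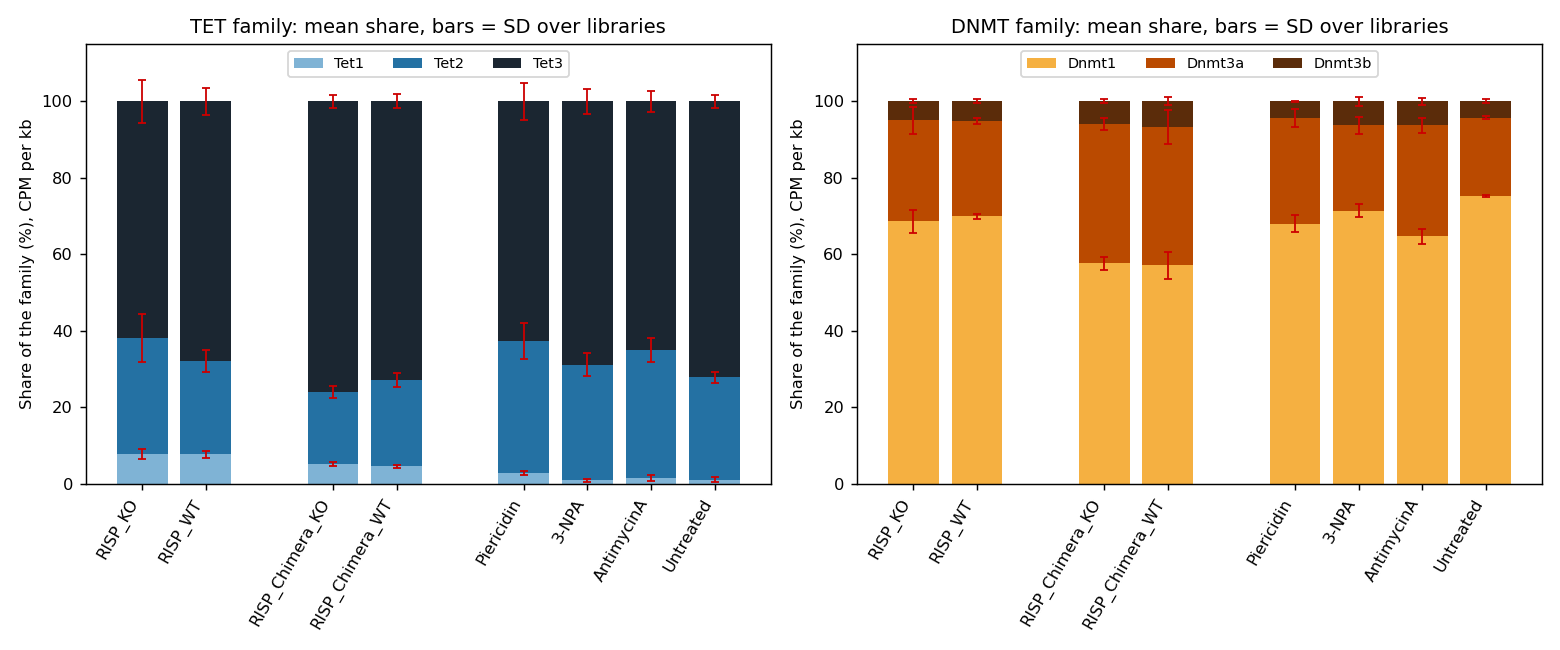
Mean share (y axis, %) of each gene in the summed CPM per kb of longest coding transcript of the TET genes (left) and the DNMT genes (right), by group; red bars are the SD over libraries. Tet3 is the largest TET share in every group, and the Dnmt1 share is highest in Untreated cells (75.3%).

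D2hgdh, the enzyme that clears D-2-hydroxyglutarate, rose with piericidin. It read 36.0, 27.0 and 28.6 CPM with piericidin, 18.6, 17.7 and 13.9 CPM with 3-NPA and 25.6, 18.7 and 16.9 CPM with antimycin A, against 17.1, 16.6 and 16.2 CPM in Untreated cells. The piericidin libraries lay above all others, those of 3-NPA overlapped the Untreated ones, and antimycin A replicate 1 was the highest library outside piericidin. The log2 fold change was 0.85 ± 0.26 with piericidin (adjusted p = 0.0231), -0.03 ± 0.27 with 3-NPA and 0.27 ± 0.27 with antimycin A (adjusted p = 0.574). The piericidin call was lost without Piericidin replicate 1 or any Untreated library (adjusted p 0.0579 to 0.115).

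Between inhibitors, Dnmt1 and Uhrf1 were lower with antimycin A than with 3-NPA, by -0.54 ± 0.10 (adjusted p = 0.000519) and -0.63 ± 0.16 (adjusted p = 0.0155) on the log2 scale. These were 2 of 8 genes called, against a background of 3.98%. The call of Uhrf1 was lost with DESeq2 (adjusted p = 0.107) and without 3-NPA replicate 1 or 3 or AntimycinA replicate 3 (adjusted p 0.0644 to 0.199). Antimycin A against piericidin called none of the 8, against a background of 0.736%, with 3 at an unadjusted p under 0.05, against 10.5% of all genes tested, and none called by DESeq2, against 1.81%. For Uhrf1 that difference was -0.25 ± 0.16 (interval -0.58 to 0.08) and for Dnmt1 -0.25 ± 0.10 (interval -0.45 to -0.05, adjusted p = 0.299). Piericidin against 3-NPA called 1 gene by edgeR, D2hgdh (0.88 ± 0.26, adjusted p = 0.0429), against a background of 4.29%. That call was lost without any one of the 6 libraries compared (adjusted p 0.0628 to 0.186), with no filter (adjusted p = 0.0729) and with the filter of 1 CPM (adjusted p = 0.0554). Tet1 missed the threshold in that comparison (1.76 ± 0.54, adjusted p = 0.0519) and was called in 4 of 6 other settings (DESeq2, no filter, the replicate block and the 2 groups alone, adjusted p 0.0126 to 0.0463). None of the 6 edgeR fits that left out 1 library called Tet1 (adjusted p 0.0575 to 0.216). DESeq2 called 3 of the 8 there, D2hgdh, Tet1 and Dnmt1, against 7.6% of its genes. The order of Dnmt1 was thus antimycin A, piericidin, 3-NPA and Untreated from low to high, and edgeR called neither antimycin A against piericidin nor piericidin against 3-NPA as different for this gene (adjusted p = 0.0880 for piericidin against 3-NPA). DESeq2 called Dnmt1 in piericidin against 3-NPA (adjusted p = 0.0446), as did edgeR without 3-NPA replicate 2 (-0.38, adjusted p = 0.0281).

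Antimycin A and the knockout both act on complex III, and the difference between their effects was tested as 1 contrast over 20 libraries, a test added after results were seen, in which culture, exposure and library kit change together and cannot be told apart. It called 3 of the 8 genes, against a background of 16.4% of 12378 genes. The antimycin A effect minus the RISP_KO effect was -1.97 ± 0.26 for Uhrf1 (adjusted p = 9.17e-06), -1.19 ± 0.16 for Dnmt1 (adjusted p = 1.03e-05) and -0.59 ± 0.16 for Dnmt3a (adjusted p = 0.0105) on the log2 scale. In 4 of 4 RISP_KO libraries Uhrf1 lay above RISP_WT, and in 3 of 3 antimycin A libraries below Untreated.

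Genes of DNA replication, during which DNMT1 and UHRF1 act, also fell with each inhibitor. Of 25 such genes 22 were called lower with piericidin, 10 with 3-NPA and 24 with antimycin A. Over all genes tested the shares called lower were 7.93%, 1.87% and 8.5%. All 25 had log2 fold changes below 0 with each inhibitor. Their medians were -0.91, -0.53 and -1.27 against medians of 0.01, -0.01 and 0.02 over all genes tested. Rrm2, the small subunit of ribonucleotide reductase, fell by 1.89 with piericidin and by 2.19 with antimycin A on the log2 scale. Mcm5, a subunit of the replicative helicase, fell by 0.62 with 3-NPA and by 1.27 with antimycin A. In RISP_KO 9 of the 25 were called higher, against 4.78% of all genes tested, and none lower. Those called included Pole (0.72 ± 0.10, adjusted p = 0.00130) and Mcm2 (0.53 ± 0.10, adjusted p = 0.00656). None was called in the chimeras, against 0.708% of all genes. There 23 of the 25 had log2 fold changes above 0, with a median of 0.15. All 16 mitosis genes were called lower with piericidin and with antimycin A. With 3-NPA 4 were called lower and all 16 had log2 fold changes below 0. In each knockout 1 was called higher, against 4.78% of all genes in RISP_KO and 0.167% in RISP_Chimera_KO. These were Top2a in RISP_KO (by 0.50) and Cenpe in RISP_Chimera_KO (by 1.02). All 16 had log2 fold changes above 0 in both knockouts, with medians of 0.39 in RISP_KO and 1.03 in RISP_Chimera_KO. Their summed level was 1132 to 1765 CPM in RISP_KO against 995 to 1131 CPM in RISP_WT, and in the chimeras 110 to 247 CPM in the knockout against 79.6 to 108 CPM in the wild type.

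Library by library, the summed level of the 25 replication genes was 3079 to 4044 CPM in RISP_KO against 2590 to 3002 CPM in RISP_WT, and in the chimeras 763 to 906 CPM in the knockout against 716 to 769 CPM in the wild type. It was 1937 to 2466 CPM with piericidin, 2613 to 3288 CPM with 3-NPA and 1452 to 2063 CPM with antimycin A, against 4064 to 4160 CPM in Untreated cells. Within each table, groups with a higher mean of these sums also had a higher mean of Uhrf1, and the part of cell division in the Dnmt1 and Uhrf1 results was not tested. By the similarity of log2 CPM centred within each table, over 28 libraries and 8017 genes, the gene most like Dnmt1 was Mcm7 (Pearson r = 0.943) and the gene most like Uhrf1 was Mcm5 (r = 0.954), both subunits of the replicative helicase. Centred within each group, which removes differences between groups, r was 0.730 for Mcm7 with Dnmt1 and 0.906 for Mcm5 with Uhrf1. For Tet2 the gene most like it was Vps13c (r = 0.877, and 0.886 within groups), for Tet1 Terf2 (0.856, and 0.788 within groups), for Tet3 Tnrc6b (0.758 and 0.725), for Dnmt3a Larp1 (0.780 and 0.674), for Dnmt3b Acy1 (0.785 and 0.682) and for D2hgdh Top3b (0.765 and 0.467). Tet1 itself did not reach the level asked of the compared genes, a mean log2 CPM of 3 in every table. These r describe libraries that share preparation and depth within a table.

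**Figure D4:**
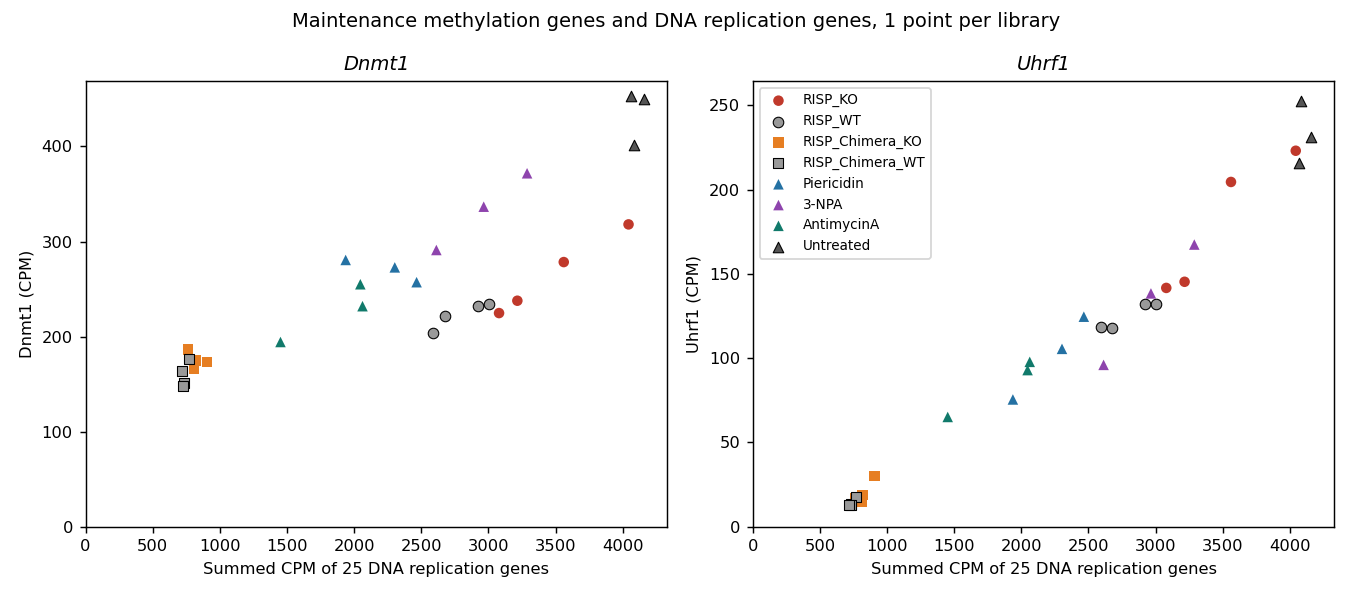
Dnmt1 (left) and Uhrf1 (right) in CPM (y axes) against the summed CPM of 25 DNA replication genes (x axes), 1 point per library; circles are 3-week-old mice, squares chimeras and triangles in vitro groups, with black outlines on controls. Untreated libraries lie at the upper right (4064 to 4160 CPM on the x axis) and chimera libraries at the lower left (716 to 906 CPM).

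Of 13 listed partners of maintenance methylation 10 were tested. Among them 6 were called lower with piericidin, 4 with 3-NPA and 6 with antimycin A. Over all genes tested the shares called lower were 7.93%, 1.87% and 8.5%. In RISP_KO 4 were called higher and in RISP_Chimera_KO 1, against 4.78% and 0.167% of all genes. Lig1, the DNA ligase that recruits UHRF1 to replication sites, averaged 118 ± 16.6 CPM with piericidin, 161 ± 18.6 CPM with 3-NPA and 87.2 ± 8.63 CPM with antimycin A, against 263 ± 13.4 CPM in Untreated cells (adjusted p = 1.02e-08, 0.000172 and 8.33e-13). It was also the gene called higher in the chimeras, at 38.4 ± 4.48 CPM in RISP_Chimera_KO and 27.0 ± 1.46 CPM in RISP_Chimera_WT (SD, n = 4, adjusted p = 0.0421). Hells, a chromatin remodeller required for DNA methylation, fell by 1.21 with piericidin and by 1.76 with antimycin A on the log2 scale. In RISP_KO the genes that rose included Cdca7, which activates Hells (0.59 ± 0.15, adjusted p = 0.0305), its relative Cdca7l (0.67 ± 0.15) and Trim28, a corepressor that binds DNMTs (0.63 ± 0.12).

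TET partners numbered 4, of which 3 were tested in the knockouts and 2 in vitro. Cxxc5, a CXXC-domain protein that binds TET2, averaged 2.01 ± 0.530 CPM in RISP_KO and 8.18 ± 0.453 CPM in RISP_WT (log2 fold change -2.03 ± 0.21, adjusted p = 0.000383). Qser1, known to guard methylation-free sites together with TET1, fell by 1.04 in RISP_KO (adjusted p = 0.0115). Ogt, the O-GlcNAc transferase that binds TET2 and TET3, rose with each inhibitor, at 569 ± 38.6 CPM with piericidin, 493 ± 8.11 CPM with 3-NPA and 512 ± 18.4 CPM with antimycin A, against 384 ± 40.2 CPM in Untreated cells (SD, n = 3, adjusted p = 9.53e-06, 0.0118 and 0.000473). None of the 3 tested was called in the chimeras, against 0.708% of all genes.

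Few enzymes of repair behind the TETs were called. Of 12 tested in vitro, 2 were called lower with piericidin, 1 with 3-NPA and 3 with antimycin A. Over all genes tested the shares called lower were 7.93%, 1.87% and 8.5%. With antimycin A 1 was called higher, against 6.5% of all genes. Apex1, the abasic-site endonuclease, fell with all 3 inhibitors, by 0.78 with piericidin, by 0.71 with 3-NPA and by 0.73 with antimycin A on the log2 scale. Neil1, a DNA glycosylase, rose with antimycin A to 41.6 ± 4.09 CPM, against 19.7 ± 4.58 CPM in Untreated cells (adjusted p = 0.000969). In RISP_KO 1 of 12 was called, Gadd45g, a stress-induced gene linked to demethylation (1.26 ± 0.18, adjusted p = 0.00174), and in the chimeras 0 of 13. The shares of all genes called were 9.86% and 0.708%.

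Of 7 readers of methylated CpG, 3 were called higher and 1 lower with piericidin, against 5.62% and 7.93% of all genes tested. With 3-NPA 1 was called higher and with antimycin A 2, against 1.35% and 6.5%. None was called in either knockout, against 9.86% of all genes in RISP_KO and 0.708% in the chimeras. Zbtb4, a zinc-finger repressor that binds methylated CpG, rose with each inhibitor (0.86 ± 0.15, 0.98 ± 0.15 and 1.09 ± 0.15 with piericidin, 3-NPA and antimycin A). In the methyl donor cycle list 5 of 11 genes were called lower with piericidin, 3 with 3-NPA and 5 with antimycin A. Over all genes tested the shares called lower were 7.93%, 1.87% and 8.5%. Srm had the smallest p of the list with piericidin (-0.94) and with antimycin A (-1.06). Amd1 fell by 0.75 with piericidin, by 0.61 with 3-NPA and by 0.68 with antimycin A. Ahcy, which removes S-adenosylhomocysteine, fell by 0.74 with piericidin and by 0.55 with 3-NPA. Mat2a, which makes S-adenosylmethionine, fell by 0.46 with antimycin A. In RISP_KO 3 of 12 were called higher, against 4.78% of all genes, and in the chimeras 0 of 13 were called, against 0.708%. Smallest in p for RISP_KO was Ahcyl2, a relative of Ahcy, at 976 ± 191 CPM in RISP_KO and 344 ± 46.6 CPM in RISP_WT (adjusted p = 0.000213).

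The list around 2-hydroxyglutarate held, other than D2hgdh, genes of enzymes that can make or clear it. It also held the electron-acceptor genes Etfa, Etfb and Etfdh and the carrier gene Slc25a1. Of the 13 listed genes 12 were tested. In RISP_KO 3 were called higher and 1 lower, against 4.78% and 5.08% of all genes. None was called in the chimeras, against 0.708%. With piericidin 3 were called lower, with 3-NPA 2 and with antimycin A 2, against 7.93%, 1.87% and 8.5%. Idh2, the mitochondrial isocitrate dehydrogenase, averaged 103 ± 7.19 CPM in RISP_KO and 64.4 ± 3.05 CPM in RISP_WT (adjusted p = 0.000713), and Idh1, its cytosolic relative, 16.8 ± 2.97 CPM in RISP_KO and 25.7 ± 1.99 CPM in RISP_WT (adjusted p = 0.0262). Ldha and Phgdh, whose enzymes can make 2-hydroxyglutarate as a side reaction, both fell with each inhibitor. Ldha fell by 0.42 with piericidin, by 0.37 with 3-NPA and by 0.84 with antimycin A, and Phgdh by 0.49, 0.48 and 0.74, while Phgdh rose by 0.73 in RISP_KO. Of 14 genes of succinate and fumarate handling, 1 was called lower with piericidin (Fh1, fumarase, by 0.56) and 1 with 3-NPA (Ogdh, of 2-oxoglutarate dehydrogenase, by 0.64). With antimycin A 3 were called lower. Over all genes tested these shares were 7.93%, 1.87% and 8.5%. In RISP_KO 1 was called higher (Sdhb by 0.26), against 4.78% of all genes.

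**Figure D5:**
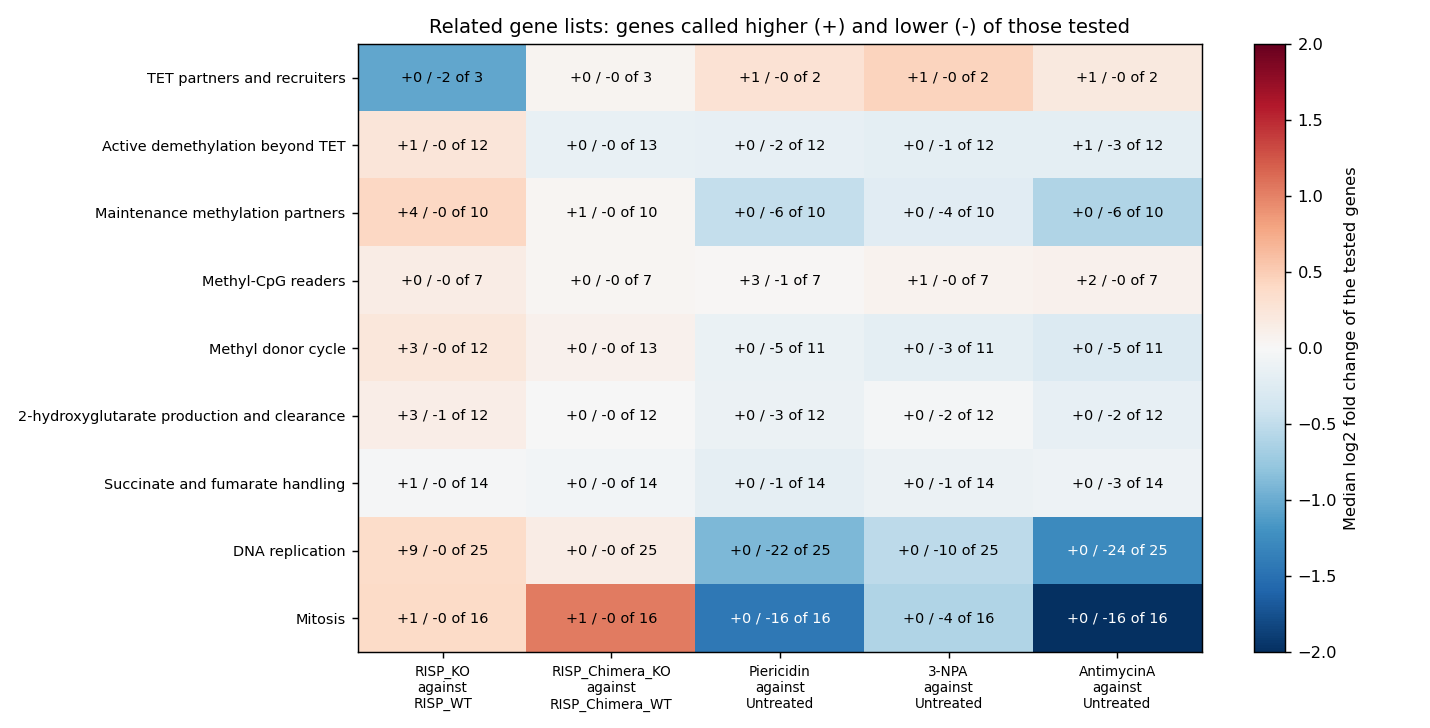
Genes of 9 related lists (rows) in the 5 comparisons against a control (columns); each cell gives how many genes were called higher (+) and lower (-) of those tested, and its colour the median log2 fold change. DNA replication and mitosis carry the largest medians, -1.27 and -2.05 with antimycin A.

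Germline genes that DNA methylation keeps silent in somatic cells stayed close to undetected. The 12 listed genes summed to 0.0833 to 0.738 CPM in RISP_KO against 0.299 to 0.976 CPM in RISP_WT, and, in the chimeras, to 0.433 to 2.79 CPM in the knockout against 0.347 to 1.08 CPM in the wild type. In vitro they summed to 0.921 to 3.27 CPM with piericidin, 1.45 to 4.80 CPM with 3-NPA and 1.17 to 4.05 CPM with antimycin A, against 0 to 3.50 CPM in Untreated cells. Of the 12, the filter on low counts left 2 to be tested in RISP_KO, 1 in the chimeras and 0 in vitro, and none was called. RNA levels of the enzymes say nothing of their activity or of methylation itself, which was not measured in these libraries.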

How the data were processed

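RNA was measured in 28 libraries. The values deposited by the authors are raw read counts, 1 for each library and Ensembl gene ID. Per the submitters' processing notes, bcl2fastq, TopHat, HTSeq and edgeR were used on mm10, and their versions and the strand setting are not given in the sources used here. Per the labels' protocols, the Takara kit (SMART-Seq v4, Nextera XT) was used for RISP_KO and RISP_WT, and the NEB kit after poly(A) selection for all others. Without the strand setting, it is not known whether reads of Dnmt3a, Dnmt3b and Tet3 were parted from those of antisense genes they overlap. These antisense genes had 0 to 389 counts per table. The deposited gene length was used only for levels per length, beside the longest coding transcript of GENCODE M21. A further table with 11 per-sample columns that match no label was not used.

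Tests used edgeR 4.0.16 in R 4.3.3, which loads limma 3.58.1, with DESeq2 1.42.0 as the other tool: filterByExpr by group (minimum count 10), TMM factors, glmQLFit and glmQLFTest over all genes, with Benjamini-Hochberg adjusted p under 0.05 as the call. The SE is the log2 fold change over the square root of F. Each knockout was fitted in its own table and the 4 in vitro groups in 1 fit. Means ± SD in CPM use TMM-scaled library sizes. Single values, summed levels, levels per kilobase and shares use plain CPM, also where they are given as means ± SD. Whether replicates are separate mice is not given in the sources used here, so each p reflects only how these libraries vary, which may be technical. The scripts were tested on simulated data.

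The 8 genes and the lists were chosen with earlier results of these data known. Named are all 8 genes, up to 3 called genes of smallest p from each list (2 at most where no gene was called), the genes most like each of the 8 by correlation among genes whose log2 CPM averaged 3 or more in every table, and Uqcrfs1 as the check of the labels. Alternatives were DESeq2, RLE scaling, no filter, a filter of 1 CPM, a block for the replicate number, fits with only the compared groups, and leaving out each library. Chosen after seeing the data were other-cell markers as a covariate, leaving out RISP_Chimera_KO replicates 2 and 4, and the contrast of antimycin A with RISP_KO.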

Additional observations from a re-analysis of the deposited data

Results flagged for a closer look

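Tet3 in RISP_WT replicate 3 stood apart from the other 3 RISP_WT libraries, at 107.9 CPM with TMM scaling. It is the only such value among 32 pairs of gene and group of 4 libraries that were looked at, and chance gives about 1 in 20. Without that library the log2 fold change of Tet3 in RISP_KO kept its negative sign and was not called.

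Uhrf1, Dnmt1 and Dnmt3a had different effects of antimycin A and of RISP_KO by the test of the difference itself, at -1.97, -1.19 and -0.59 on the log2 scale. For Uhrf1 3 of 3 antimycin A libraries lay below all Untreated ones and 4 of 4 RISP_KO libraries above all RISP_WT ones. Culture, exposure and library kit differ between the 2 effects and cannot be told apart.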

How the results depend on the processing

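The number of the 8 genes called changed under these settings. For RISP_KO it was 1, and 0 with the replicate block and with other-cell markers as a covariate, which largely follows the genotype (0 to 1 when 1 library was left out). For the chimeras it was 0, and 2 with DESeq2 and 1 without 2 libraries (0 to 2). For piericidin it was 5 and 3 to 4 when 1 library was left out, and for 3-NPA 2 and 1 to 2. For antimycin A it was 3, and 4 with DESeq2 (2 to 3), and for its difference from the RISP_KO effect 3 (3 to 4, the fourth being Tet1 without Untreated replicate 2, adjusted p = 0.0297). For antimycin A against 3-NPA it was 2, and 1 with DESeq2 (1 to 2). For piericidin against 3-NPA it was 1, and 3 with DESeq2, 0 with the filter of 1 CPM, 2 with the block and 2 with the 2 groups alone (0 to 2). For the difference of the knockout effects it was 0, and 2 with DESeq2 and 1 with no filter (0 to 2). Libraries of the same replicate number had correlations of -0.10 to 0.13 in their deviations from the group means. For the knockouts the library of the same number was the closest of the control group for 0 of 4 RISP_KO and 1 of 4 RISP_Chimera_KO libraries. In vitro it was the closest of the other group for 2 or 3 of 3 libraries in each comparison, at small correlations of 0.0040 to 0.090. A pairing by number in vitro is thus possible, and the main fits did not use it. Over all genes, RISP_KO had 1364 calls, 2148 with DESeq2, 895 with the block and 55 with the covariate. The chimeras had 102 calls, 436 with DESeq2, 208 with no filter, 164 with the covariate and 247 without 2 libraries. DESeq2 gave 672 calls for 3-NPA in place of 377, 203 in place of 86 for antimycin A against piericidin, 788 in place of 465 against 3-NPA and 820 in place of 502 for piericidin against 3-NPA. For the difference of knockout effects 509 calls became 908 with DESeq2, 324 with the block and 319 without 2 libraries. Signs turned only for log2 values that were not called. For D2hgdh the difference of knockout effects was 0.044 with no filter and 0.0097 with the filter of 1 CPM. When 1 library was left out, Tet2 ranged from -0.025 to 0.33 in RISP_KO, from -0.013 to 0.23 in the chimeras and from -0.27 to 0.077 for the difference of the knockout effects. For that difference Uhrf1 ranged from -0.31 to 0.076 and D2hgdh from -0.063 to 0.051. In the chimeras Dnmt3b ranged from -0.11 to 0.055. With 3-NPA, Tet1 ranged from -0.40 to 0.81, D2hgdh from -0.11 to 0.10 and Tet3 from -0.027 to 0.13. With antimycin A, Tet3 ranged from -0.088 to 0.11, and against 3-NPA from -0.14 to 0.047. The causes of these shifts were not tested.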
